A study of Mus musculus with 4 samples.

Results

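The genes described here are 10 activity genes, whose transcripts neurons raise within minutes to hours of strong synaptic input: Arc, Homer1, Npas4, Nr4a1, Nr4a2, Nr4a3, Nptx2, Ier2, Dusp1 and Dusp6. They were chosen by name and matched to the symbol given for each gene in 2 deposited tables of RNA sequencing from mouse prelimbic cortex, an area of the medial prefrontal cortex. Of the 10 genes, 9 had a row in the table of 12318 genes for the stress experiment and 8 in the table of 15396 genes for the viral experiment, and 7 had a row in both. Among genes above 0 in both libraries, neither table holds one whose log2 ratio is nearer to 0 than 0.32. Nptx2 in the stress pair, and Nr4a2 and Ier2 in the viral pair, have no row in the tables used here and were not analysed there.

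All 4 libraries came from C57BL/6 mice aged 8 weeks, with 1 library in each of 4 groups. In the stress experiment a library labelled stress-susceptible was set against one labelled control. Chronic social defeat, in which a mouse is repeatedly attacked by an aggressor, is named in the stress tag of both. What the control animals went through is therefore not clear. In the viral experiment, mice expressed the chromatin corepressor CDYL (chromodomain Y-like protein) from an adeno-associated virus (AAV-CDYL) or green fluorescent protein from the same kind of virus (AAV-GFP), and no stress is named in their labels. The labels do not give the promoter in the virus or the cells it reached. Whether a library came from 1 mouse or a pool is not stated. Values are FPKM, fragments normalised to transcript length and to sequencing depth, so they can be compared between genes. With 1 library per group there is no replicate error and no test, and every difference below describes these libraries. To be counted as lower or higher, a gene had to reach 1 FPKM in either library of a pair and its FPKM + 1 had to differ by 1.5-fold or more. Effective depth, read from the steps between low values, ranged from 14300000 fragments in the control library to 23800000 in the AAV-CDYL library. Cdyl itself went with the label, with 1052 FPKM under AAV-CDYL against 2.68 under AAV-GFP.

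Calcium entering through NMDA receptors and voltage-gated channels activates kinases, among them the MAP kinase ERK, which act on transcription factors such as CREB and SRF already bound at these genes. The products then act at the synapse (Arc, Homer1, Nptx2), on further transcription (Npas4, the NR4A nuclear receptors, Ier2) or back on the MAP kinases (Dusp1, Dusp6). In cortex their levels are widely read as a trace of recent neuronal activity.

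Every activity gene with a row was lower in the susceptible than in the control library and lower in the AAV-CDYL than in the AAV-GFP library, that is 9 of 9 and 8 of 8, where 47.7% and 46.6% of all genes compared lay below their reference. In the stress pair 5 of 9 passed the 1.5-fold rule (Arc, Homer1, Nr4a1, Nr4a3 and Dusp6) and 0 were higher, where 10.8% of the 5334 genes compared were lower and 18.9% higher. In the viral pair 5 of 8 passed (Arc, Homer1, Nptx2, Nr4a1 and Nr4a3) and 0 were higher, where 14.4% of 8047 genes were lower and 31.3% higher. A 2-fold rule left 5 lower activity genes in the stress pair and 1, Homer1, in the viral pair. Under it 2.55% and 1.80% of all genes compared were lower. Centring each pair on the median of all its genes gave 8 in each, where 36.0% and 44.4% of all genes were lower. The median difference on the log2(FPKM + 1) scale was -1.04 in the stress pair and -0.63 in the viral pair, against 0.24 and 0.30 over all genes compared. Genes with closer values in a pair carry no row. The medians of all genes therefore rest on the more different ones and do not give the difference of a typical gene. Counts of such genes are not a test, since the genes were picked with earlier results of these data known. In bulk tissue, fewer neurons and less RNA per neuron cannot be told apart. Arc and 3 others passed in both pairs, Dusp6 in the stress pair alone. Whether the pairs differ for Dusp6 was not tested.

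**Figure D1:**
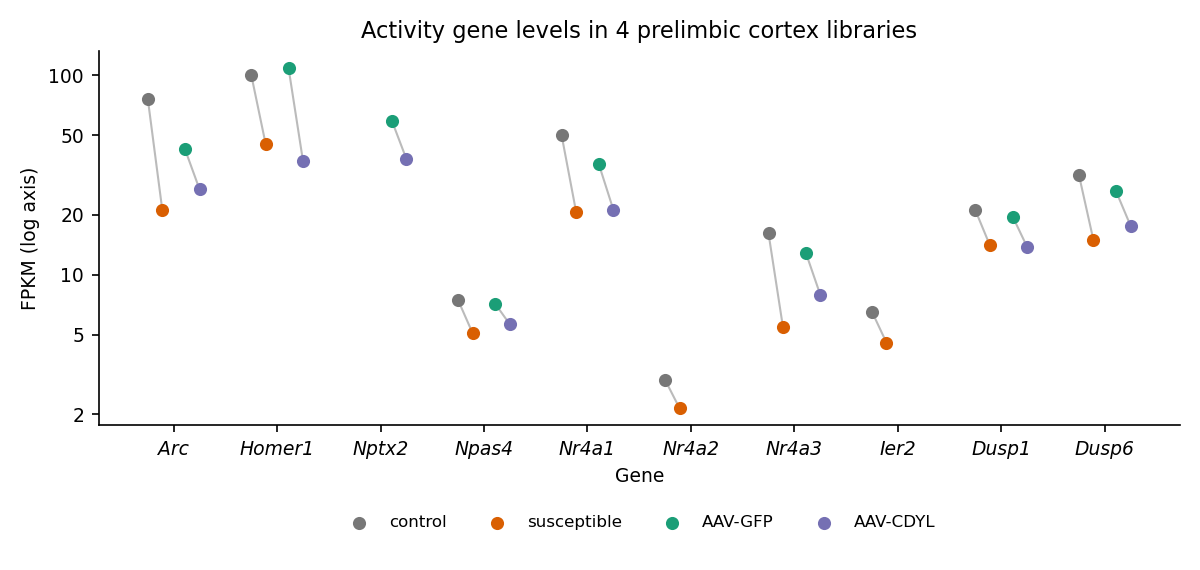
FPKM of each activity gene (log axis) in the control, susceptible, AAV-GFP and AAV-CDYL libraries, 1 point per library, with a grey line joining the 2 libraries of a pair. Each line slopes down from the reference to the treated library, most steeply for Arc in the stress pair (76.2 to 21.2) and Homer1 in the viral pair (109 to 37.2); genes with no row in a table have no points for it.

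The sequences just upstream of these genes were searched for short motifs, among them the core of the cyclic AMP response element (CRE) to which CREB binds. Any link between a motif and the differences was not tested. RefSeq promoters (250 bases before to 50 after a start, build GRCm38.p6) matched 7 of the 10 genes, with 8 promoters because Homer1 has 2; Arc, Nptx2 and Ier2 are named only. The 5 below are printed 5′ to 3′ on the strand of the gene. Capitals mark the CRE core TGACG on either strand, the full CRE TGACGTCA, which holds a core on each strand, and the EGR site GCGGGGGCG.
Homer1, chr13:93303507-93303806, plus strand: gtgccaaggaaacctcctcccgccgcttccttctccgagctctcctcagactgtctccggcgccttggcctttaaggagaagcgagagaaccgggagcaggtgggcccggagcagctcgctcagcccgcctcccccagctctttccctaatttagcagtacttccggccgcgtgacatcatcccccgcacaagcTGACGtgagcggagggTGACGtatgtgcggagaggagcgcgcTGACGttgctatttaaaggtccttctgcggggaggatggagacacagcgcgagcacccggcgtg
Nr4a1, chr15:101266596-101266895, plus strand: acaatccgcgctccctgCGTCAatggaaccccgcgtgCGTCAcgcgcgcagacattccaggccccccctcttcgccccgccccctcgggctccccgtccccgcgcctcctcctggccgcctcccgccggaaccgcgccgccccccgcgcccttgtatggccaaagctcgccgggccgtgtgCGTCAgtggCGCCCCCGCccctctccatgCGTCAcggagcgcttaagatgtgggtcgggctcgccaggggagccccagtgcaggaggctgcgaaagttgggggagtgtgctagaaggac
Nr4a3, chr4:48045055-48045354, plus strand: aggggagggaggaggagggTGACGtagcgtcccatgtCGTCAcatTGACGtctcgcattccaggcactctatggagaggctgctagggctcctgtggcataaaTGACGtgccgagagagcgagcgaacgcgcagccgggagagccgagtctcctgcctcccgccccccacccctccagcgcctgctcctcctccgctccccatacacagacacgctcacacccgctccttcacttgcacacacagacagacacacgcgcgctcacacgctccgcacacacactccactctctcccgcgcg
Dusp1, chr17:26508423-26508722, minus strand: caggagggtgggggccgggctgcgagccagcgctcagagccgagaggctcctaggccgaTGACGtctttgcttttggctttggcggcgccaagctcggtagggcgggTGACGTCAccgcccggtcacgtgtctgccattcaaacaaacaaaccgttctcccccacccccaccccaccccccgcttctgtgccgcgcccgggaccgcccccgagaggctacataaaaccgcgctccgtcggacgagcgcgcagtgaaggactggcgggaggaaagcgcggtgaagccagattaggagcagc
Dusp6, chr10:99262981-99263280, plus strand: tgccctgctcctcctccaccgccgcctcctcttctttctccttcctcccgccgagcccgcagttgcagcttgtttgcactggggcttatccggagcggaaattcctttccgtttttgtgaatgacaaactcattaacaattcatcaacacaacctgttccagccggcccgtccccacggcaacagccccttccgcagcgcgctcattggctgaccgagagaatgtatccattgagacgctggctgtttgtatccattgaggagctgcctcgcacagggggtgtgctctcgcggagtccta

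The core TGACG was present in 6 of the 8 promoters, 1 for each of 6 genes, and in 20.8% of 32851 mouse promoters of the same length. Among the 7145 promoters with a G+C share in the range of those 6 (63 to 81.7%), 32.6% held it. Nr4a1, Nr4a2 and Nr4a3 each had 4 cores. Homer1 and Dusp1 each had 3, those of Homer1 lying between bases -56 and -10 from its start, while the full CRE of Dusp1 counts as 2. Npas4 had 2. At least 3 cores, a number chosen after seeing the counts, were found in 5 of the 8 promoters and in 1.03% of all. That share was not computed for promoters of like G+C, where a core is more frequent. The full CRE occurred once, in Dusp1 (1.79% of all promoters), and the EGR site once, in Nr4a1 (2.91%). The second Homer1 promoter and that of Dusp6 had no match to any motif searched. The other motifs had no match in the 8 windows: the NR4A element AAAGGTCA (1.51% of all promoters), the EGR variant GCGTGGGCG (0.612%), the AP-1 site TGANTCA (7.81%) and the SRF-binding CArG box (1.63%). Of the genes with a promoter here, only Dusp6 lacked the core altogether, so its presence cannot be weighed against size of difference. Homer1, Nr4a1 and Nr4a3 hold it and passed the 1.5-fold rule in the stress pair. Npas4, Nr4a2 and Dusp1 hold it and did not pass there, while Dusp6 has none in this window and did. A match describes letters only and is not a bound site.

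Arc (ENSMUSG00000022602, chromosome 15, 74669083 to 74672570, mm10) encodes a cytoskeleton-associated protein that promotes removal of AMPA receptors from synapses, and its mRNA travels into dendrites. It stood at 76.2 FPKM in control, 21.2 in susceptible, 42.5 with AAV-GFP and 26.8 with AAV-CDYL. The control library was the highest of the 4 and the susceptible library the lowest. The ratio of susceptible to control was 0.278, with a 95% interval of 0.261 to 0.295 from counting error alone (about 3322 and 1492 fragments). For AAV-CDYL to AAV-GFP it was 0.631 (0.596 to 0.669). These intervals cover counting error only and leave out the spread between animals, which is unknown. The difference on the log2(FPKM + 1) scale was -1.80 in the stress pair, where 27 of the 5334 genes had a more negative value, and -0.64 in the viral pair, where 865 of 8047 did. The authors' deposited table gave Arc q = 0.0225 in the stress pair and 0.999 in the viral pair.

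Homer1 (ENSMUSG00000007617, chromosome 13, 93303757 to 93404129) encodes a postsynaptic scaffold that ties metabotropic glutamate receptors to Shank proteins and to calcium stores. Its long forms are made constitutively, while activity induces a short form, Homer1a, that breaks these ties. The deposited value is 1 number per gene over 12 annotated transcripts, so the forms cannot be separated here. Homer1 stood at 100.5 FPKM in control, 45.1 in susceptible, 109 with AAV-GFP and 37.2 with AAV-CDYL. The reference libraries were close to each other and both treated libraries were at less than 0.45 of their reference. The ratios were 0.448 (counting interval 0.409 to 0.491) in the stress pair and 0.341 (0.312 to 0.372) in the viral pair. In the viral pair only 32 of 8047 genes had a more negative difference than the -1.53 of Homer1. In the stress pair 89 of 5334 lay below its -1.14. In the authors' deposited table q was 0.0605 in the stress pair and 0.274 in the viral pair.

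Nptx2 (ENSMUSG00000059991, chromosome 5, 144545902 to 144557478), a secreted pentraxin that clusters AMPA receptors on excitatory synapses, including those onto parvalbumin interneurons, was measured in the viral pair. It measured 59.1 FPKM under AAV-GFP against 38.0 under AAV-CDYL, a ratio of 0.644 (0.611 to 0.679). That ratio is close to those of Arc and the NR4A genes in the same pair, and the level of Arc was 0.720 of that of Nptx2 under AAV-GFP and 0.706 under AAV-CDYL.

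The 3 NR4A genes encode orphan nuclear receptors that bind DNA as monomers or with RXR partners. Nr4a1 (Nur77; chromosome 15, 101266846 to 101274792) stood at 50.04 FPKM in control, 20.7 in susceptible, 35.8 with AAV-GFP and 21.2 with AAV-CDYL. Both treated libraries were near 21 FPKM, from different references, with ratios of 0.414 (0.384 to 0.445) and 0.592 (0.552 to 0.636). Nr4a3 (Nor1; chromosome 4, 48045153 to 48086447) stood at 16.1 FPKM in control, 5.45 in susceptible, 12.9 with AAV-GFP and 7.95 with AAV-CDYL. Its ratio of 0.338 (0.308 to 0.371) in the stress pair was the next lowest after Arc, and that in the viral pair was 0.615 (0.570 to 0.665). Nr4a2 (Nurr1; chromosome 2, 57106830 to 57124003), better known from midbrain dopamine neurons, had the lowest level of all activity genes, with 2.97 FPKM in control against 2.14 in susceptible. Its ratio of 0.720 had a wide counting interval, 0.549 to 0.949 from about 102 and 119 fragments, and did not pass the 1.5-fold rule. The ratio of Nr4a3 to Nr4a2 was 5.42 in control and 2.54 in susceptible. In the authors' deposited table Nr4a1 and Nr4a3 each had q = 0.0225 in the stress pair; with Arc they made up 3 of the 6 genes listed there as lower at q under 0.05.

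Npas4 (ENSMUSG00000045903, chromosome 19, 4984355 to 4989971), a transcription factor made almost only in neurons in answer to calcium influx, was among the least different. It stood at 7.45 FPKM in control, 5.09 in susceptible, 7.14 with AAV-GFP and 5.64 with AAV-CDYL. All 4 libraries lay within a narrow range, and neither ratio, 0.684 (0.595 to 0.787) nor 0.790 (0.699 to 0.893), passed the rule. Ier2 (chromosome 8, 84661331 to 84662852), a nuclear protein of the immediate early class, measured 6.53 FPKM in control against 4.57 in susceptible. Its ratio of 0.7002 (0.556 to 0.885) did not pass either.

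Of the phosphatases, Dusp6 passed the rule in the stress pair and Dusp1 did not. Dusp6 (chromosome 10, 99263231 to 99267488), a cytoplasmic phosphatase specific for ERK that is itself induced by ERK, stood at 31.7 FPKM in control, 15.0 in susceptible, 26.2 with AAV-GFP and 17.6 with AAV-CDYL. Its ratio was 0.472 (0.430 to 0.517) in the stress pair and 0.672 (0.619 to 0.730) in the viral pair. Dusp1 (chromosome 17, 26505590 to 26508519), a nuclear phosphatase of several MAP kinases that glucocorticoids also induce, stood at 21.05 FPKM in control, 14.04 in susceptible, 19.6 with AAV-GFP and 13.8 with AAV-CDYL. Its ratios were 0.667 (0.588 to 0.758) and 0.704 (0.628 to 0.790), and neither passed. On the log2(FPKM + 1) scale the stress difference, -0.55, lay just short of the rule and the viral difference, -0.48, further from it. The authors' deposited table gave Dusp6 q = 0.252 in the stress pair, and 0.999 there for Npas4, Nr4a2, Ier2 and Dusp1. Dusp6 stood at 1.51 times Dusp1 in control and 1.07 times in susceptible, and at 1.34 and 1.28 times in the viral pair. Apart from 11 exonic bases that Dusp1 shares with Ergic1 on the other strand, no activity gene overlapped an exon of another gene, and none shared its locus with another listed gene.

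**Figure D2:**
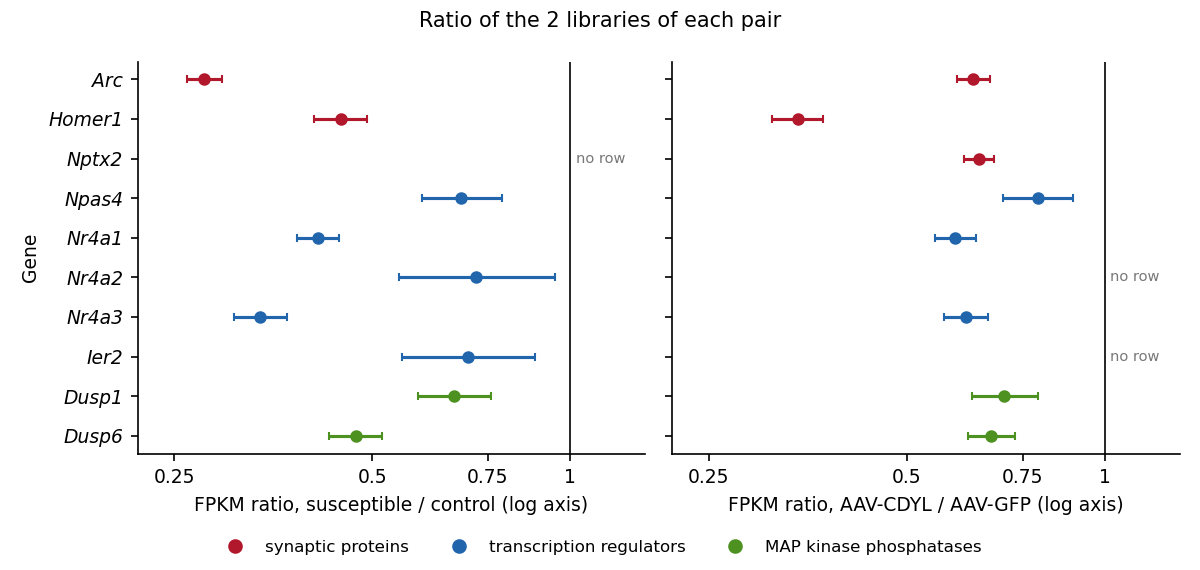
Ratio of treated to reference FPKM (log axis) of each activity gene in the stress pair (left) and the viral pair (right), coloured by role; bars are 95% intervals for counting error only and the black line marks a ratio of 1. All points lie left of 1, with Arc lowest on the left (0.278) and Homer1 lowest on the right (0.341).

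The activity genes did not keep the same proportions in the 2 pairs. A ratio of 2 genes within a library does not depend on how that library was scaled. Arc stood at 0.758 of Homer1 in control and 0.470 in susceptible, but at 0.390 under AAV-GFP and 0.721 under AAV-CDYL, so this ratio was lower in the treated library of the first pair and higher in that of the second. Arc to Nr4a1 was 1.52 in control and 1.022 in susceptible, against 1.19 and 1.27 in the viral pair. Nr4a1 to Nr4a3 varied less, from 2.67 with AAV-CDYL to 3.801 in susceptible. Of the 7 genes with a row in both tables, 6 had the more negative difference in the stress pair, and Homer1 was the exception. How many of all genes with a row in both tables did so was not computed, so the count cannot be read as a trait of these 7.

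The reference libraries themselves differed. AAV-GFP was below control for 6 of these 7 genes, with ratios from 0.558 for Arc and 0.716 for Nr4a1 to 0.958 for Npas4. Homer1 was at 1.09. The share of all genes listed in both tables with AAV-GFP below control was not computed, so this count has no background. For Arc the gap between the reference libraries (0.558) was wider than that between AAV-CDYL and AAV-GFP (0.631). The tables were normalized separately, and virus, stress experiment and table cannot be told apart in this comparison. The order of levels was control, AAV-GFP, AAV-CDYL, susceptible for Arc, Npas4, Nr4a1, Nr4a3 and Dusp6. For Dusp1 the last 2 changed places, and for Homer1 the order was AAV-GFP, control, susceptible, AAV-CDYL. Without replicates, neighbours in these orders cannot be separated.

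**Figure D3:**
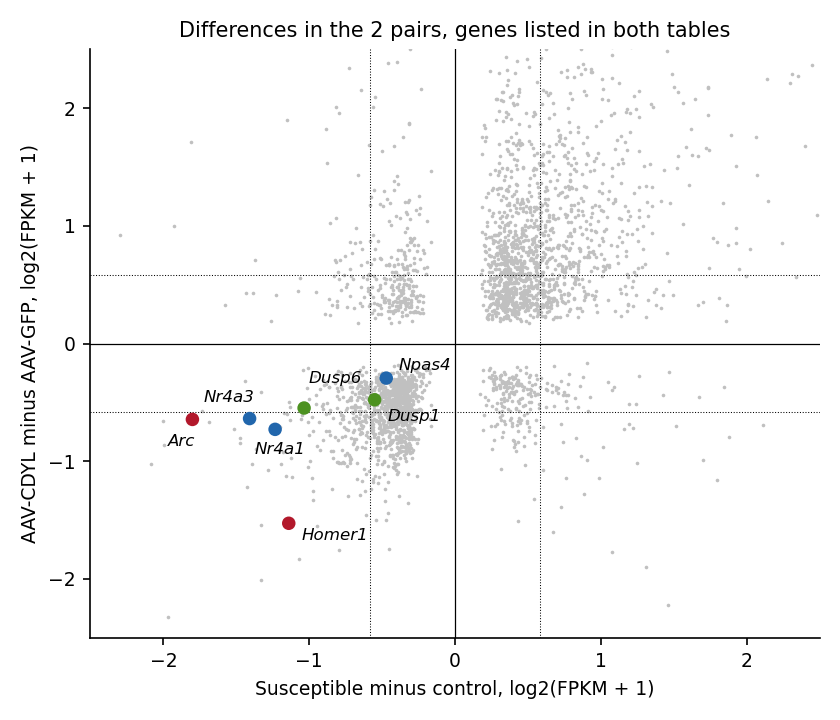
Difference of log2(FPKM + 1) in the stress pair (horizontal) against that in the viral pair (vertical) for the 3242 genes at 1 FPKM or more in either library of both tables; 167 genes lie beyond the axes, dotted lines mark 1.5-fold, and the empty bands near 0 are where the tables hold no genes. The 7 activity genes (red synaptic, blue transcription, green phosphatases) all lie at the lower left, with Arc farthest left at -1.80 and Homer1 farthest down at -1.53.

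Genes whose pair of differences lay nearest to that of Arc were sought among 1671 genes with a mean of at least 5 FPKM in both tables. By Euclidean distance over the 2 differences the 5 nearest were the predicted genes Gm2007 (0.11) and Gm21586 (0.29), Fsd1l (0.36), Stxbp6 (0.38) and Nr4a3 (0.39). Nr4a3 was thus the only activity gene among them. For Homer1 the 5 nearest were Chst8 (0.26), the calcium channel subunit gene Cacnb4 (0.31), the immediate early gene Egr4 (0.39), Ccl27a (0.40) and the synaptotagmin gene Syt2 (0.41). Cacnb4 and Syt2 share a locus with other listed genes, as does Stxbp6 in the stress table and Fsd1l in the viral table, so their fragments may be divided uncertainly. Gm2007 and Gm21586 were not checked for near-identical copies.

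Other genes of the same responses were taken from lists, again as counts beside the shares given above. Of 18 other immediate early transcription factors, 13 were listed in the stress pair and 8 were lower and 2 higher, with a median difference of -0.82. Of the 12 listed in the viral pair 6 were lower and 2 higher (median -0.59). Fos, the classic marker of activated neurons, measured 26.1 FPKM in control against 8.86 in susceptible. It has no row in the viral pair and was not analysed there. Egr2 measured 6.15 against 0.787 in the stress pair and 2.69 against 1.34 in the viral pair. Egr3 stood at 40.7 and 29.5 in the stress pair and at 66.7 and 19.3 in the viral pair. Like Homer1 and unlike Arc, Egr3 thus had its wider gap in the viral pair. Of 21 other immediate early genes for signalling or secreted proteins, 2 of 12 listed were lower and 3 higher in the stress pair, and 2 of 15 were lower and 5 higher in the viral pair. Ier5, a relative of Ier2, was lower in both, at 30.8 and 17.5 FPKM in the stress pair and 33.0 and 21.4 in the viral pair.

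Of 21 late response genes, which follow the first wave, 10 reached 1 FPKM in the stress pair, with 2 lower and 2 higher. Of the 13 that did in the viral pair, 7 were lower and 2 higher (median -0.70). Gpr3, a receptor that raises cyclic AMP, stood at 7.24 and 2.57 FPKM in the stress pair and at 4.55 and 2.42 in the viral pair. Inhba, the activin subunit induced by NMDA receptors, measured 5.96 and 2.48 FPKM in the viral pair. Among 19 other dual-specificity phosphatases, 0 of 5 passed the rule in the stress pair, where Dusp6 did. For the viral pair the counts were 2 of 10 lower, among them Dusp3 (84.3 and 51.7 FPKM), and 2 higher, Dusp15 (5.85 and 13.1) and Dusp2 (0.602 and 1.86). In the MAP kinase list 1 of 9 was lower and 0 higher in the stress pair, the single gene being Spry4, an inhibitor of ERK signalling (4.06 and 2.26 FPKM). Of 14 in the viral pair, 2 were lower, Spred1 (51.7 and 29.0) and Spred2 (45.6 and 25.3), which also restrain ERK, and 2 were higher, the kinase genes Rps6ka1 (3.75 and 12.4) and Mknk1 (6.79 and 14.8). The share of lower genes in this list is close to that of all genes in the pair.

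For calcium signalling genes and partners of the synaptic products, far fewer genes could be compared in the stress pair than in the viral pair, and the pairs were not tested against each other. Of 30 calcium signalling genes 7 were compared in the stress pair and 0 passed. Of 20 in the viral pair, 8 were lower and 1 higher (median -0.56), with the kinase gene Camkk2 at 77.4 and 41.4 FPKM and Camk4 at 22.3 and 12.2. The higher gene was Nfatc3 (1.55 and 3.08). Of the Homer, Arc and pentraxin partners 0 of 7 compared were lower and 1, the dynamin gene Dnm2, was higher in the stress pair (10.1 and 17.0 FPKM). Of 18 in the viral pair, 10 were lower and 2 higher (median -0.72), the higher ones being Homer3, a relative of Homer1 (2.98 and 8.29), and Dnm2 (11.9 and 21.7). Set against the median of the neuron markers, the viral medians were 0.039 for calcium signalling genes and -0.13 for the partners. Shank1, which binds Homer1, stood at 124 and 87.0 FPKM in the stress pair and at 127 and 62.2 in the viral pair. Itpr1, the inositol trisphosphate receptor that Homer1 tethers, stood at 124 and 93.9, and at 138 and 63.5. Among NR4A partners and Npas4 relatives, 2 of 3 were lower in the stress pair, including the glucocorticoid receptor gene Nr3c1 (24.7 and 15.1), and 1 of 6 in the viral pair, Npas2 (16.7 and 10.6). Gpr3, Dusp3, Mknk1, Camk4, Nfatc3, Dnm2, Homer3, Shank1, Itpr1 and Npas2 share a locus with another listed gene in at least 1 of the tables, so their fragments may be divided uncertainly.

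**Figure D4:**
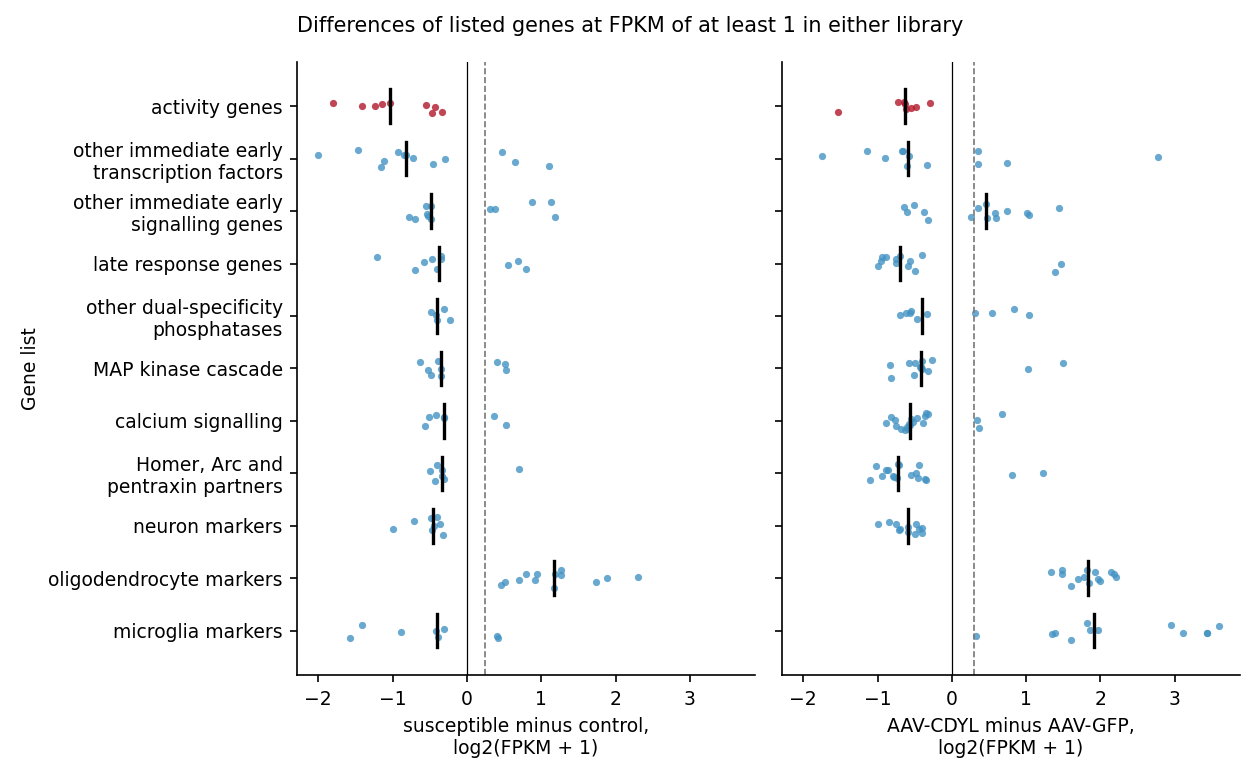
Difference of log2(FPKM + 1) for each gene of the activity genes (red) and 10 other lists (blue), at 1 FPKM or more in either library, in the stress pair (left) and the viral pair (right); black bars are list medians and the dashed line is the median of all genes compared. The activity genes have a median of -1.04 on the left, further from 0 than the -0.46 of the neuron markers, and of -0.63 on the right, beside -0.60 for the neuron markers.

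Markers of cell types also differed between the libraries of each pair, in directions that varied by cell type. Their part in the differences of the activity genes was not tested. The centring given after them is a description and not such a test. All listed neuron markers were below their reference, as were 47.7% and 46.6% of all genes compared: 8 of 14 were listed in the stress pair, 2 of them lower by the rule (median -0.46, summed level 2530 FPKM in control and 1826 in susceptible), and 12 of 14 in the viral pair, 7 of them lower (median -0.60, summed level 5291 and 3470). Oligodendrocyte markers were higher for 11 of 13 listed genes in the stress pair (summed level 625 and 1604) and 14 of 14 in the viral pair (673 and 2609). Microglia markers were lower for 3 of 8 in the stress pair, with none higher (158 and 144), and higher for 11 of 12 in the viral pair (218 and 1445). Astrocyte markers were higher for 3 of 6 (402 and 666) and 7 of 8 (290 and 834). The other in the viral pair, Gjb6, was lower (44.7 and 19.5), and Gfap (5.85 and 386) made up much of the AAV-CDYL sum. Endothelial markers were higher for 6 of 9 (88.3 and 238) and 4 of 7 (95.02 and 178). Several markers, among them Gfap, Cnp and P2ry12 in both pairs, share a locus with other listed genes, so their fragments may be divided uncertainly. Leukocyte markers were higher for 3 of 3 above the floor (74.3 and 285) and 11 of 11 (3.54 and 45.7), but only 2 of those 3 and 1 of those 11 reached 1 FPKM in the reference library, so the floor fixes the direction of the others. Among these markers Cd3g, Cd8a, Cd79a and Nkg7 were listed at 0 with AAV-GFP, Ly6g at 0 with AAV-CDYL and Ms4a1 at 0 in control. Markers of striatal neurons, which lie outside the labelled area, were higher for 6 of 7 in the stress pair (71.0 and 120 FPKM) and for 3 of 8, with 1 lower, in the viral pair (182 and 146), with 5 of the 7 and 6 of the 8 at 1 FPKM or more in the reference. Of the markers of excitatory neurons 2 of 7 were lower and 1 higher in the stress pair and 5 of 9 lower in the viral pair, and of those of interneurons 2 of 6 lower and 1 higher, and 3 of 9 lower. Excitatory markers of cortex were present in every library, with Neurod6 at 87.1, 53.3, 84.7 and 54.4 FPKM in control, susceptible, AAV-GFP and AAV-CDYL.

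Set against the median of the listed neuron markers, a comparison chosen after seeing the data, 4 of 9 activity genes were still lower by 1.5-fold in the stress pair: Arc (-1.34), Nr4a3 (-0.95), Nr4a1 (-0.78) and Homer1 (-0.68), where 2.23% of all genes were. For the viral pair 1 of 8 was, Homer1 (-0.93), where 0.783% of all genes were. Arc (-0.05), Nr4a1 (-0.13), Nr4a3 (-0.04) and Nptx2 (-0.03) then lay close to the neuron markers in that pair. Neuron markers with closer values in a pair carry no row, so the medians subtracted rest on the more different ones.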

How the data were processed

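RNA was extracted with Trizol from frozen prelimbic tissue and libraries were made with NEBNext Ultra reagents, without strand marking, per the labels' protocols. FPKM values came from Cuffdiff on mouse build mm10, per the submitters' processing notes, and were used as the authors deposited them; aligner, annotation and all versions: not given in the sources used here. The p-values and q-values in the deposited tables compare 1 library with 1 library and are quoted only as the authors'. The susceptible column was matched to its title although its name lacks a letter. Differences are of log2(FPKM + 1), which understates those of low genes, at a floor of 1 FPKM in either library. No p-value was computed.

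The activity genes and lists were chosen with earlier results of these data known. Depth was estimated from the spacing of low FPKM values among single-transcript genes 3 to 20 kb long (GENCODE M21), and 89.6 to 96.4% of the lowest values were whole steps to within 0.15. Fragments behind a gene were taken from its shortest coding transcript in the GENCODE basic set, and counting intervals are exact conditional intervals at 95%. Beside the activity genes, the text names Cdyl, genes drawn from those with the widest differences of each list (up to 4, and the head of each direction), and the 5 nearest to Arc and to Homer1. Cd8a, Cd79a, Ly6g and Ms4a1 are named for values at 0, chosen after seeing them. Alternatives were pseudocounts of 0.1 and 0.5, no floor or a floor of 5 FPKM, a 2-fold rule, median centring, upper-quartile scaling and, added after seeing the data, centring on neuron markers. Tools were Python 3.11.15 with pandas 2.3.3, numpy 2.4.6 and scipy 1.17.1, and matplotlib 3.10.9 for figures.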

Additional observations from a re-analysis of the deposited data

How the results depend on the processing

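The count of lower activity genes stayed within 1.5 times its value, and none became higher, with either pseudocount, without a floor, with a floor of 5 FPKM and with upper-quartile scaling. Centring on the median of all genes compared (0.24 and 0.30) raised it to 8 in each pair. In all, 1918 genes (36.0%) were then lower against 532 higher in the stress pair, and 3572 (44.4%) against 1630 in the viral pair. Genes with closer values carry no row, so those medians rest on the more different ones. The 2-fold rule left 1 gene, Homer1, in the viral pair and 5 in the stress pair, where 1.80% and 2.55% of all genes were lower. Centring on neuron markers left 1 in the viral pair and turned the sign of Nr4a2 (0.12) and Ier2 (0.024) in the stress pair, and of Dusp6 (0.047), Dusp1 (0.12), Npas4 (0.30) and the median of other immediate early transcription factors (0.0070) in the viral pair. It also turned these list medians: in the stress pair late response genes (0.080), other dual-specificity phosphatases (0.053), MAP kinase genes (0.11), calcium signalling genes (0.14), synaptic partners (0.12) and microglia markers (0.053), and in the viral pair other dual-specificity phosphatases (0.19), MAP kinase genes (0.18), calcium signalling genes (0.039), NR4A partners (0.26), interneuron (0.19) and striatal markers (0.59). The interneuron median of the stress pair, near 0, turned with a floor of 5 FPKM (-0.33), median centring (-0.24) and upper-quartile scaling (-0.04), and the striatal median of the viral pair with a pseudocount of 0.1 (0.006). No paired analysis was possible because each group has 1 library. Dusp1 in the stress pair and Dusp6 in the viral pair lie beside the rule, and upper-quartile scaling carries both past it. Depth limits Nr4a2 and Ier2 most, at about 102 to 161 fragments a library.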

Other observations

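Not all immediate early genes were lower. In the viral pair Atf3, a transcription factor of cell stress, stood at 0.508 FPKM under AAV-GFP against 9.29 under AAV-CDYL, with 0.538 and 1.13 in the stress pair, short of the rule. Maff stood at 0.376 and 1.301 FPKM in the viral pair and at 0.546 and 2.34 in the stress pair. Zfp36, which speeds decay of inflammatory mRNAs, stood at 0.542 and 3.18 FPKM, and at 0.565 and 1.86. Ier3 was higher in both pairs, at 5.49 and 8.76 FPKM in the viral pair and at 6.64 and 16.3 in the stress pair. These genes are induced in many cell types, and which cells they came from was not tested. Atf3, Maff and Zfp36 were under 1 FPKM in the reference libraries, so the floor admits them only through their treated values and fixes their direction. Among late response genes, the kinase gene Pim1 (0.692 and 3.69 FPKM in the viral pair, 0.656 and 1.66 in the stress pair) and Baz1a (0.280 and 2.35, 0.235 and 1.13) were higher under the same restriction. Baz1a shares a locus with another listed gene in both tables, and Pim1 in the stress table.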
